A study of Arabidopsis thaliana with 15 samples.

Results

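The genes described here encode proteins that build the cell plate at the end of plant cell division. They are the cytokinesis syntaxin SYP111 (KNOLLE, AT1G08560), its Sec1-type partner KEU (AT1G12360), the kinesins HIK (AT1G18370), TES (AT3G43210), PAKRP1 (AT4G14150), PAKRP1L (AT3G23670), POK1 (AT3G17360) and POK2 (AT3G19050), the kinase TIO (AT1G50230), and RUK (AT5G18700), a protein with a kinase domain. The 10 genes were chosen by locus as a functional group of cytokinesis, with earlier results of these data known, out of 27444 nuclear protein-coding genes of Arabidopsis thaliana in the gene table used (TAIR10.1). Of the 10, 9 matched a row of that table, and AT1G50230 was not analysed here. TIO is a kinase of the Fused family, and the table names AT1G50240 FU, with FUSED as its synonym. The values of FU are given beside the others and enter no count unless this is stated.

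A plant cell divides by laying down a new wall from the inside outwards. Vesicles travel along the microtubules of the phragmoplast, a structure that expands towards the mother cell wall, and fuse into a cell plate. KNOLLE is the syntaxin of that fusion and KEULE binds it. HINKEL and TETRASPORE activate a MAP kinase cascade at the phragmoplast, PAKRP1 and PAKRP1L organise its microtubules, and the POK kinesins act at the cortical division site. Many genes of mitosis and cytokinesis are transcribed mainly in G2 and M phase. MYB3R proteins, transcription factors with 3 MYB repeats, bind promoters of such genes as activators or repressors.

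Binding was measured by ChIP-seq, the sequencing of DNA recovered from chromatin with an antibody, here anti-GFP (ab290), in inflorescence meristems dissected shortly after bolting. The plants, all Col0, carried GFP-MYB3R1 from the MYB3R1 promoter (3 ChIP libraries), GFP-MYB3R4mNES from the MYB3R4 promoter (2), or GFP-MYB3R4 from the MYB3R4 promoter (3). The labels do not spell out mNES, do not say whether the native genes were intact, and list input samples as the only controls, with no ChIP from untagged plants. Separate plants for each replicate are not stated either, and p-values therefore measure the spread between these libraries only, which may be technical.

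Peaks were listed for each library on its own, over input. The labels give 2 input samples for the 3 MYB3R4 ChIP libraries, with none numbered as replicate 3, so the input behind the fold enrichments of MYB3R4 replicate 3 is not known. The lists held 7089 to 19655 nuclear peaks for MYB3R1, 227 and 256 for MYB3R4mNES and 456 to 2717 for MYB3R4. Read depth is unknown, so a missing peak says only that none was called in that list, and no detection limit can be given. All 308 peak names inside the list of MYB3R4mNES replicate 1 carry the file name of MYB3R4 replicate 3. The 2 lists are not copies. Of the 227 nuclear peaks of the first, 200 overlapped a peak of the other, but 0 had the same start and end, 4 had the same summit and 0 had the same fold enrichment. It is called the library labelled MYB3R4mNES replicate 1, and values without it are given where a comparison rests on it.

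The first question was which of the cytokinesis genes each protein bound. A gene was counted as bound when a peak summit lay from 1000 bp outside to 200 bp inside either end of the gene. MYB3R1 libraries 1, 2 and 3 bound 8, 9 and 8 of the 9 genes, where they bound 43.6%, 65.9% and 29.5% of all genes. The library labelled MYB3R4mNES replicate 1 bound 1 and MYB3R4mNES replicate 2 bound 2, against 0.612% and 0.747% of all genes. MYB3R4 libraries 1, 2 and 3 bound 2, 4 and 3, against 1.29%, 9.12% and 1.30% of all genes. KEU alone separated the MYB3R1 libraries from each other, while the MYB3R4 libraries differed by PAKRP1L and POK2.

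MYB3R1 libraries bound 8.33 ± 0.577 of the 9 genes and MYB3R4 libraries 3.00 ± 1.00 (mean ± SD, n = 3 each). The groups did not overlap, and the difference of 5.33 genes gave p = 0.10 in an exact permutation test (two-sided), the smallest p that 3 libraries against 3 can give. Because the genes were chosen with results of these data known, this p is no independent evidence. With every list reduced to its 227 strongest peaks by p-value, the length of the shortest list, MYB3R1 libraries bound 6, 5 and 5 of the 9 genes. MYB3R4 libraries then bound 1, 2 and 1, and the groups still did not overlap (difference 4 genes, exact permutation p = 0.10). At this equal length MYB3R1 libraries bound 1.16%, 1.18% and 1.19% of all genes, MYB3R4mNES libraries 0.612% and 0.663%, and MYB3R4 libraries 0.721%, 0.885% and 0.711%. SYP111, HIK, PAKRP1, PAKRP1L and POK2 were bound in all 3 shortened MYB3R1 lists. The deposited files are named in 2 styles, and the groups were also apart within each style. In the first, the mean was 8.5 genes for MYB3R1 (2 libraries) and 3 for MYB3R4 (2 libraries; exact permutation p = 0.333, the smallest possible). The other style has 1 library of each, with 8 genes for MYB3R1 and 3 for MYB3R4, so no test was made. All genes were apart in the same direction within each style. In the first, MYB3R1 libraries bound 43.6% and 65.9% of all genes and MYB3R4 libraries 1.29% and 9.12%. In the other these shares were 29.5% and 1.30%.

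The second question was how binding by the mNES form compared with that by MYB3R4. MYB3R4mNES libraries bound 1.5 ± 0.707 of the 9 genes (mean ± SD, n = 2) and MYB3R4 libraries 3.00 ± 1.00 (n = 3). The difference of -1.5 genes was within the spread of the libraries, with p = 0.40 in the two-sided exact permutation test, which can give no p below 0.20, and both groups had a library with 2 genes. Without the library labelled MYB3R4mNES replicate 1 the difference was -1, with 2 genes in the remaining mNES library. With the 227 strongest peaks it changed sign to 0.167 genes (MYB3R4mNES 1 and 2, MYB3R4 1, 2 and 1; exact permutation p = 1). That length is set by the library labelled MYB3R4mNES replicate 1, and without this library, at the 256 peaks of the next shortest list, the difference was 0.667 (exact permutation p = 1). By gene, SYP111 was bound in every library of both forms. TES was bound in 1 mNES and 0 MYB3R4 libraries, and HIK in 0 mNES and 3 MYB3R4 libraries. With the 227 strongest peaks, HIK was kept in MYB3R4 replicate 2 alone among these libraries, and TES in MYB3R4mNES replicate 2. The deposited MYB3R4 lists are longer than the mNES lists, so a difference in the genes bound is not shown. The number of mNES libraries, 2, allows no test of a single gene that could pass 0.05.

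Genes were called targets of a group when 2 or more of its libraries bound them. MYB3R1 targets held 8 of the 9 genes, all but KEU, where 44.8% of all genes were targets. MYB3R4mNES targets held 1, SYP111, where 0.434% of all genes were targets, and without the library labelled MYB3R4mNES replicate 1 no target can be defined by this rule. MYB3R4 targets held 3, SYP111, HIK and PAKRP1L, where 1.40% of all genes were targets. With the 227 strongest peaks per library MYB3R1 targets held 5 of the 9 genes and MYB3R4 targets 1, and MYB3R4 targets also held 1 when a -log10 q-value of at least 10 was required. The shares of all genes that were targets under these 2 settings are not given here. The 44.8% and 1.40% belong to the full lists and are no background for these counts.

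**Figure D1:**
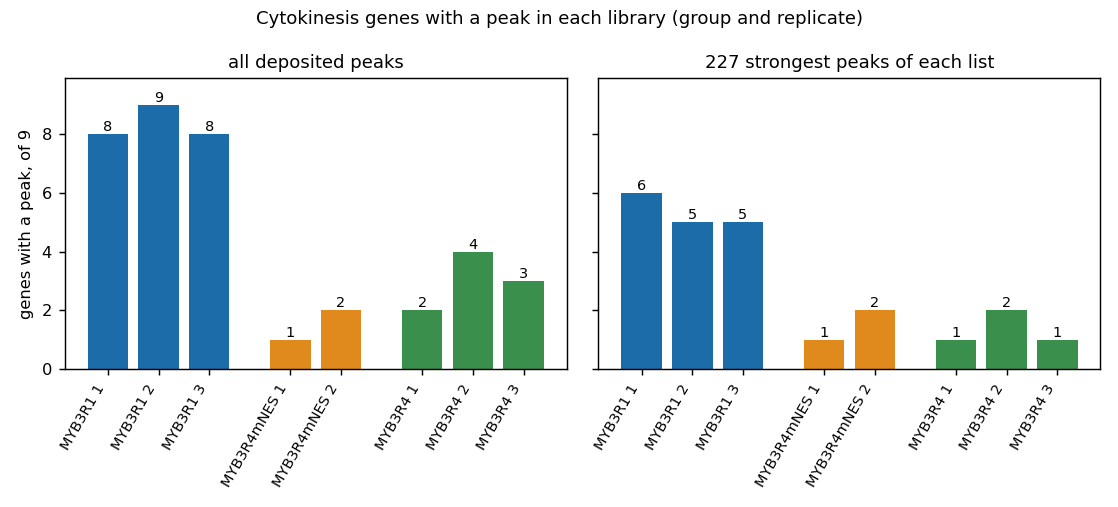
Number of the 9 cytokinesis genes with a peak (y axis) in each ChIP library (x axis, group and replicate number), with all deposited peaks on the left and the 227 strongest peaks of each list on the right. MYB3R1 libraries bind 8, 9 and 8 genes on the left and 6, 5 and 5 on the right, above every library of MYB3R4mNES and MYB3R4. Of all genes, MYB3R1 libraries bound 29.5% to 65.9% on the left, against 0.612% to 9.12% in the other libraries. On the right MYB3R1 libraries bound 1.16% to 1.19% of all genes, against 0.612% to 0.885% in the others.

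The syntaxin gene SYP111 was the only one of the 9 bound in all 8 libraries, where 103 of all 27444 genes were so bound. The fold enrichment at its summit, a ratio over background from input as deposited by the authors, was 15.9, 11.4 and 8.84 in the MYB3R1 libraries in replicate order. It was 4.45 and 5.77 in the library labelled MYB3R4mNES replicate 1 and in replicate 2, and 4.63, 6.22 and 6.77 in MYB3R4 replicates 1, 2 and 3. The MYB3R1 values lay above all others, and those of MYB3R4mNES and MYB3R4 overlapped; lists were called separately, so fold enrichments are described by library and no test compares them. SYP111 was the strongest of the 9 genes in every library. It ranked 32nd of 11478, 20th of 19655 and 34th of 7089 nuclear peaks in the MYB3R1 lists, 7th of 227 and 5th of 256 in the MYB3R4mNES lists, and 9th of 786, 8th of 2717 and 6th of 456 in the MYB3R4 lists. The summit lay between positions 2710987 and 2711044 of chromosome 1 (TAIR10) in all 8 libraries, a spread of 57 bp. In MYB3R1 replicates 2 and 3 the peak was 3116 and 3551 bp wide, against 614 to 1483 bp in the other 6 libraries, for a gene of 1476 bp. In MYB3R1 replicate 1 the summit also lay in the window of the neighbouring NPQ1 (AT1G08550).

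KEU, whose protein acts with KNOLLE in vesicle fusion, stood apart from it. Its only peak was in MYB3R1 replicate 2, the longest list, with a fold enrichment of 1.86 and a -log10 q-value of 6.78. That peak ranked 17806th of 19655, and COAB (AT1G12350) shares its summit. In MYB3R1 replicates 1 and 3 the nearest summits lay 2397 and 2412 bp from KEU, with fold enrichments of 5.92 and 4.39. In all MYB3R4mNES and MYB3R4 libraries the nearest summit was 5534 bp or more away.

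HIK and TES, also known as NACK1 and NACK2, encode the kinesins that activate the MAP kinase cascade at the phragmoplast. HIK had fold enrichments of 12.3, 9.97 and 8.23 in MYB3R1 libraries 1, 2 and 3, and 1.91, 3.27 and 2.31 in MYB3R4 replicates 1, 2 and 3. Neither MYB3R4mNES library had a HIK peak, and their nearest summits were 277533 and 277447 bp from the gene. In MYB3R4 replicate 2 the HIK peak ranked 94th of 2717, and in replicates 1 and 3 it ranked 247th of 786 and 170th of 456. With a -log10 q-value of 24.6 the peak of replicate 2 was the firmest of the 3, the others having 5.08 and 6.40.

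The HIK peaks just described lay at the end of the gene with the higher coordinate. MYB3R1 libraries had a second, weaker peak at the other end, with fold enrichments of 2.96, 3.91 and 2.44. Its summit lay 97, 42 and 35 bp inside the gene in replicate order and also in the window of AT1G18360. No MYB3R4 library had this second peak.

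At TES the fold enrichment was 9.10, 7.05 and 3.78 in the MYB3R1 libraries and 2.42 in MYB3R4mNES replicate 2. The library labelled MYB3R4mNES replicate 1 and the 3 MYB3R4 libraries had no TES peak. In MYB3R4mNES replicate 2 the TES peak ranked 150th of 256 with a -log10 q-value of 4.75, and it was lost when a value of at least 5 was required. In MYB3R1 replicate 3 the peak stood lower in its list than in the other replicates, at rank 464 of 7089, against ranks 174 of 11478 and 332 of 19655. The 2 genes of the pair thus shared MYB3R1 peaks, while MYB3R4 peaks were seen at HIK and the mNES peak at TES, in 1 library; whether this differs between the forms was not tested.

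RUK encodes RUNKEL, a microtubule-associated protein with a kinase domain. Its stronger peak had fold enrichments of 5.31, 6.77 and 4.35 in MYB3R1 replicates 1, 2 and 3. All MYB3R4mNES and MYB3R4 libraries lacked a peak, the nearest summit lying 34135 bp or more away. The summit of this peak, at the end of RUK with the higher coordinate, was shared with AT5G18710 in all 3 libraries. In replicate 3 the end of AT5G18710 was nearer, so that RUK was bound in 2 libraries when each summit was given to the nearest gene end only. MYB3R1 replicates 1 and 2 had a second peak at the other end, with fold enrichments of 2.69 and 3.17, in a window shared with AGP25 (AT5G18690), an arabinogalactan protein gene.

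FU (AT1G50240) had a peak in each MYB3R1 library, with fold enrichments of 2.99, 3.79 and 2.71, and none in the other 5 libraries. Its summits lay 69 to 172 bp inside the gene, at the end with the lower coordinate. With FU counted in addition, MYB3R1 libraries bound 9.33 genes on average and MYB3R4 libraries 3.00, a difference of 6.33 (exact permutation p = 0.10).

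PAKRP1 and PAKRP1L encode the kinesin-12 motors at the phragmoplast midline, where microtubule plus ends meet. PAKRP1L had fold enrichments of 14.8, 10.6 and 7.61 in MYB3R1 libraries 1, 2 and 3, and 2.21 and 2.22 in MYB3R4 replicates 2 and 3. MYB3R4 replicate 1 and both MYB3R4mNES libraries had no peak there. These MYB3R4 peaks had -log10 q-values of 8.66 and 5.00 and ranked 828th of 2717 and 190th of 456. The second of them lay just under a -log10 q-value of 5 before rounding and was lost when at least 5 was required.

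PAKRP1 reached a fold enrichment of 9.04, 7.64 and 7.21 in MYB3R1 replicates 1, 2 and 3. No MYB3R4mNES or MYB3R4 library had a PAKRP1 peak. In 4 of these 5 libraries the nearest summit lay between 78845 and 79068 bp away, at the gene of another phragmoplast kinesin, PAKRP2 (AT4G14330), and in MYB3R4 replicate 2 it lay 65226 bp away. In the MYB3R1 lists its peak ranked 176th of 11478, 240th of 19655 and 73rd of 7089, and it remained bound in all 3 at the equal length of 227 peaks.

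POK1 and POK2 encode kinesin-12 proteins that keep the phragmoplast directed to the division site. POK2 had fold enrichments of 11.5, 9.40 and 7.78 in MYB3R1 libraries 1, 2 and 3, and 2.15 in MYB3R4 replicate 2. The other 4 libraries had no POK2 peak, the nearest summit lying 387221 bp or more away. In the MYB3R1 lists its peak ranked 91st of 11478, 89th of 19655 and 57th of 7089.

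POK1 was the weaker of the pair. Its strongest peak reached 2.87, 4.27 and 2.47 in fold enrichment in MYB3R1 libraries 1, 2 and 3, and the other 5 libraries lacked one. It ranked 6435th, 2902nd and 2235th in those lists, and its summit was shared with AT3G17350 in all 3. MYB3R1 replicates 1 and 3 had a second summit 936 and 943 bp outside the same end, with fold enrichments of 2.69 and 2.10. In replicate 2 a single peak of 1840 bp, from position 5934433 to 5936272 of chromosome 3, spanned both places. At 227 peaks per library POK1 was bound in 0 libraries, whereas POK2 was bound in 3.

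**Figure D2:**
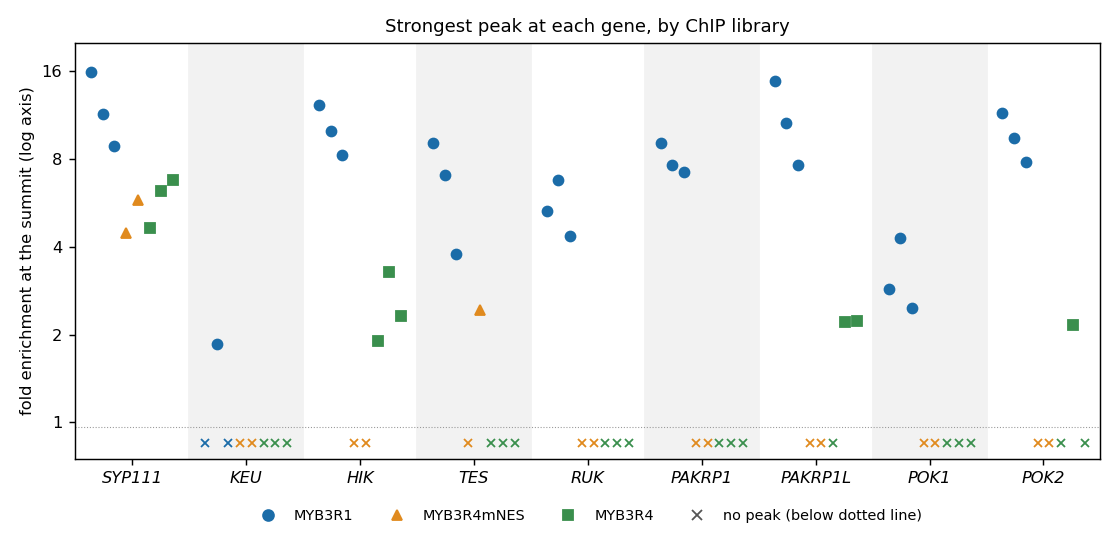
Fold enrichment at the summit of the strongest peak (y axis, log scale) for each of the 9 genes (x axis) in 8 ChIP libraries, each point 1 library and each cross a library without a peak. SYP111 has a point in every library, from 4.45 to 15.9, and PAKRP1, POK1 and RUK have points in the MYB3R1 libraries only.

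Among the 9 genes, the order of fold enrichment was much the same in the 3 MYB3R1 lists. SYP111 came first in each, at 15.9, 11.4 and 8.84, and the next 3 places were taken by PAKRP1L, HIK and POK2. In replicate 3 these 3 lay close together, at 7.61 for PAKRP1L, 8.23 for HIK and 7.78 for POK2. TES and PAKRP1 followed in replicate 1, with 9.10 and 9.04. RUK, POK1 and, where it was called, KEU had the lowest values, except that in replicate 3 RUK, at 4.35, stood above TES, at 3.78. The 4 genes bound in any MYB3R4 library were the 4 strongest in every MYB3R1 list. Of these 4, POK2 had a MYB3R4 peak in replicate 2 alone, and PAKRP1L in replicates 2 and 3. TES, bound in MYB3R4mNES replicate 2, stood below these 4 in every MYB3R1 list. Whether genes at large show the same match was not tested. From SYP111 down to RUK the ranges of neighbouring genes over the 3 MYB3R1 libraries overlapped, for example 7.61 to 14.8 for PAKRP1L and 8.23 to 12.3 for HIK. The range of RUK, 4.35 to 6.77, lay just above that of POK1, 2.47 to 4.27.

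Expressed as a percentile of fold enrichment among the nuclear peaks of the same list, SYP111 lay between 97.4 and 99.9 in all 8 libraries. HIK, PAKRP1L, POK2 and PAKRP1 lay between 98.5 and 99.8 in the MYB3R1 lists. In the MYB3R4 lists HIK lay at 68.6, 96.6 and 62.9, PAKRP1L at 69.6 and 58.1, and POK2 at 62.8. TES lay at 98.5, 98.3 and 93.5 in the MYB3R1 lists and at 40.8 in MYB3R4mNES replicate 2. RUK lay at 91.8, 98.0 and 95.7 in the MYB3R1 lists. POK1 lay at 42.9, 85.2 and 67.9 in the MYB3R1 lists, below the middle of the list in replicate 1 and above it in replicates 2 and 3. KEU lay at 9.41 in MYB3R1 replicate 2, near the bottom of that list. The lists differ widely in length, and percentiles from different lists describe each list and show no change between them.

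**Figure D3:**
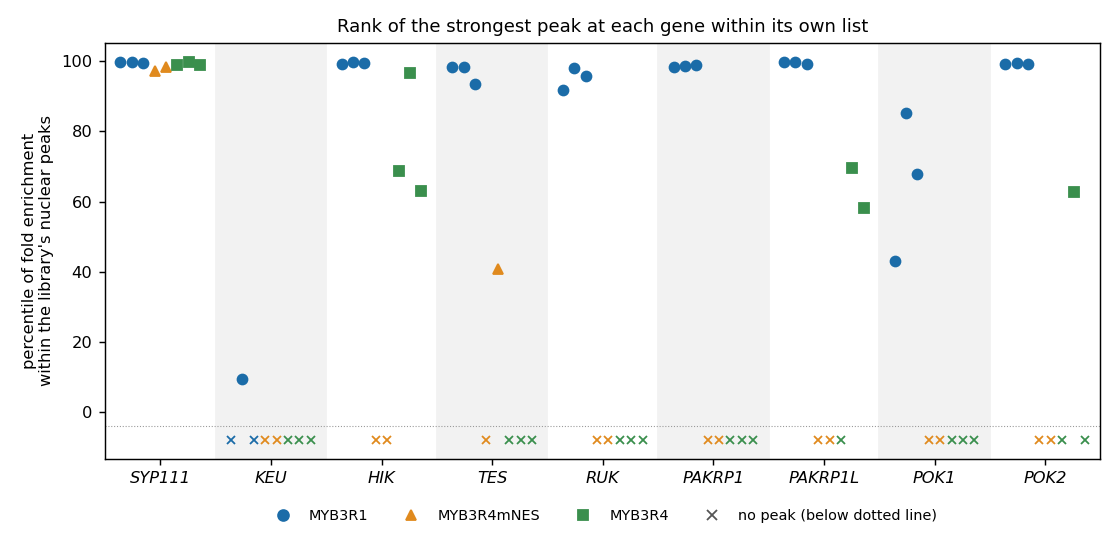
Percentile of fold enrichment within the library's own nuclear peaks (y axis) for the strongest peak at each of the 9 genes (x axis), each point 1 library and each cross a library without a peak. SYP111 lies above 97 in every library, and HIK, PAKRP1, PAKRP1L and POK2 lie there in the MYB3R1 lists. RUK lies from 91.8 to 98.0, TES from 93.5 to 98.5 and POK1 from 42.9 to 85.2 in those lists, and KEU lies at 9.41.

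The strongest peaks lay close to a gene end, at the same end of a gene in every library. The strongest peak of a gene in a library was found in 37 of 72 combinations of the 9 genes and 8 libraries. All 37 summits lay within 144 bp of a gene end, although the window reached 1000 bp outside. Distances at other genes are not given here, and whether this closeness is particular to the 9 genes was not tested. Summits of different libraries were 57 bp apart at most for SYP111, 94 bp for POK2, 101 bp for POK1, 115 bp for TES, 123 bp for PAKRP1, 132 bp for RUK, 140 bp for HIK and 207 bp for PAKRP1L. At PAKRP1L the MYB3R1 summits lay 6 to 54 bp outside the gene, between the MYB3R4 summits at 111 bp outside and 96 bp inside. The gene table gives no strand, so the 5' and 3' ends are not told apart. In the other 35 combinations no peak overlapped the gene at all, and the nearest summit was 2397 bp or more away.

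**Figure D4:**
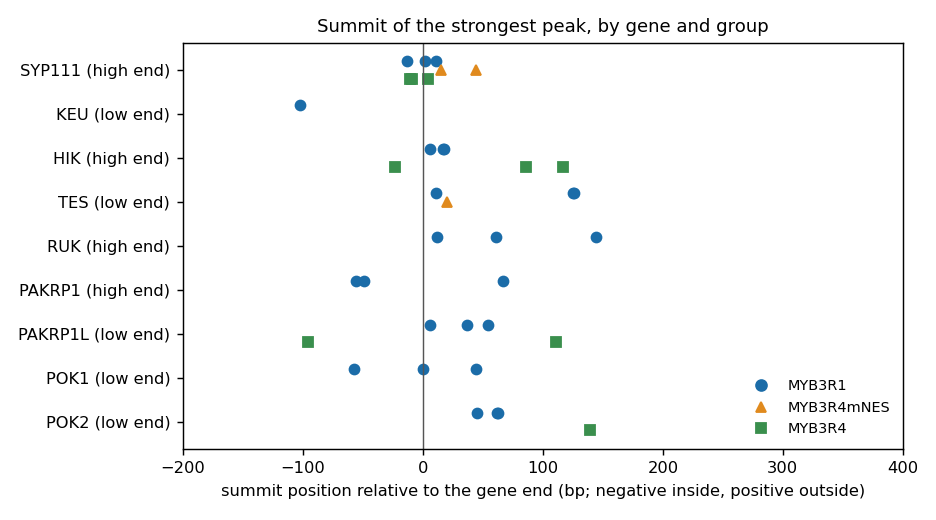
Position of the summit of the strongest peak relative to the gene end (x axis, bp, negative inside and positive outside the gene) for each of the 9 genes (y axis, with the end of lower or higher coordinate), each point 1 library. All points lie within 144 bp of the end, and points of the 3 groups fall together at SYP111.

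Other genes of the pathway were taken from 5 lists with 51 genes in all. Their targets numbered 38 for MYB3R1, 2 for MYB3R4mNES and 5 for MYB3R4, beside 44.8%, 0.434% and 1.40% of all genes. Every MYB3R4mNES target rests on the library labelled MYB3R4mNES replicate 1, since the group has 2 libraries; MYB3R4mNES replicate 2 by itself bound 3 of the 51 genes, PATL1, PLE and CSLD5. Of 15 genes of phragmoplast microtubules, 14 were MYB3R1 targets, 1 was a MYB3R4mNES target and 4 were MYB3R4 targets. The MYB3R4mNES target was PLE (AT5G51600), the microtubule bundler MAP65-3, with fold enrichments of 10.9, 9.88 and 7.26 in MYB3R1, 2.76 and 3.46 in MYB3R4mNES and 2.29, 3.00 and 3.67 in MYB3R4. PAKRP2 (AT4G14330), another kinesin of the phragmoplast, had 16.1, 10.7 and 9.14 in MYB3R1, 2.25 in the library labelled MYB3R4mNES replicate 1, and 2.48, 3.43 and 3.47 in MYB3R4. MYB3R4mNES replicate 2 also had a peak over PAKRP2, with a fold enrichment of 2.47, but its summit lay 229 bp inside the gene, past the 200 bp allowed, and was not counted. The other MYB3R4 targets were the kinesin-5 gene AT2G28620 and EDE1 (AT2G44190), a microtubule-binding protein, each in MYB3R4 replicates 2 and 3. AUR2 (AT2G25880), an Aurora kinase, was bound in 0 libraries.

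Of the 7 genes of the MAP kinase cascade that HIK and TES activate, 3 were MYB3R1 targets, or 42.9%, close to the 44.8% of all genes. That 0 of the 7 were targets of either other group is near the 0.434% and 1.40% of all genes. MKK6 (AT5G56580), the MAP kinase kinase of that cascade, had fold enrichments of 5.86, 7.31 and 3.15 in MYB3R1 and 2.10 in MYB3R4 replicate 2. Of 20 genes of membrane fusion and vesicle delivery, to which SYP111 and KEU belong by function, 14 were MYB3R1 targets. These are 70%, beside 44.8% of all genes. That 0 of the 20 were targets of the others is again near the 0.434% and 1.40% of all genes. PATL1 (AT1G72150), a lipid-binding cell plate protein, had peaks in MYB3R1 replicates 1 and 3, MYB3R4mNES replicate 2 and MYB3R4 replicate 2. SEC6 (AT1G71820), an exocyst subunit, and PATL2 (AT1G22530) had their only peak outside MYB3R1 in MYB3R4 replicate 2. SEC1A (AT1G02010), a Sec1-type protein like KEU, and the dynamin gene DL3 (AT1G59610) were bound in 0 libraries.

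Of all genes, 44.8% were targets of MYB3R1, 0.434% of MYB3R4mNES and 1.40% of MYB3R4. Of 4 cell plate wall genes, 4 were MYB3R1 targets, and CSLD5 (AT1G02730), a cellulose synthase-like enzyme, was also a target of the others. Its fold enrichments were 18.4, 10.6 and 10.0 in MYB3R1, 2.17 and 3.13 in MYB3R4mNES and 2.51, 3.33 and 2.90 in MYB3R4. The callose synthase gene GSL8 (AT2G36850) and the cellulase gene GH9A1 (AT5G49720) had 1 MYB3R4 peak each, in replicate 2. Of 5 division plane genes, 3 were MYB3R1 targets and 0 were targets of the others, which for 5 genes is near the shares of all genes. RANGAP1 (AT3G63130) had a peak in MYB3R4 replicate 2. MYB3R4 replicate 2 is the longest list of its group.

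Of 8 other SYP1 syntaxin genes, MYB3R1 libraries bound 6, 7 and 4, or 75%, 87.5% and 50%, beside 43.6%, 65.9% and 29.5% of all genes. MYB3R4mNES and MYB3R4 libraries bound 0 of the 8, which is near the 0.612% to 9.12% of all genes bound in those libraries and says nothing particular of these genes. SYP124 (AT1G61290) was bound in 0 libraries. Of 13 kinesin-7 genes besides HIK and TES, 9 were MYB3R1 targets, or 69.2%, where 44.8% of all genes were targets. Among the 13, AT2G21300 was a target of all 3 groups. AT2G21300 had fold enrichments of 11.5, 8.57 and 6.86 in MYB3R1, 2.85 and 2.97 in MYB3R4mNES and 3.43, 4.08 and 3.54 in MYB3R4. AT1G21730, AT4G39050 and AT5G66310 had 1 MYB3R4 peak each and none of MYB3R4mNES, and AT4G24170 and AT5G42490 were bound in 0 libraries.

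**Figure D5:**
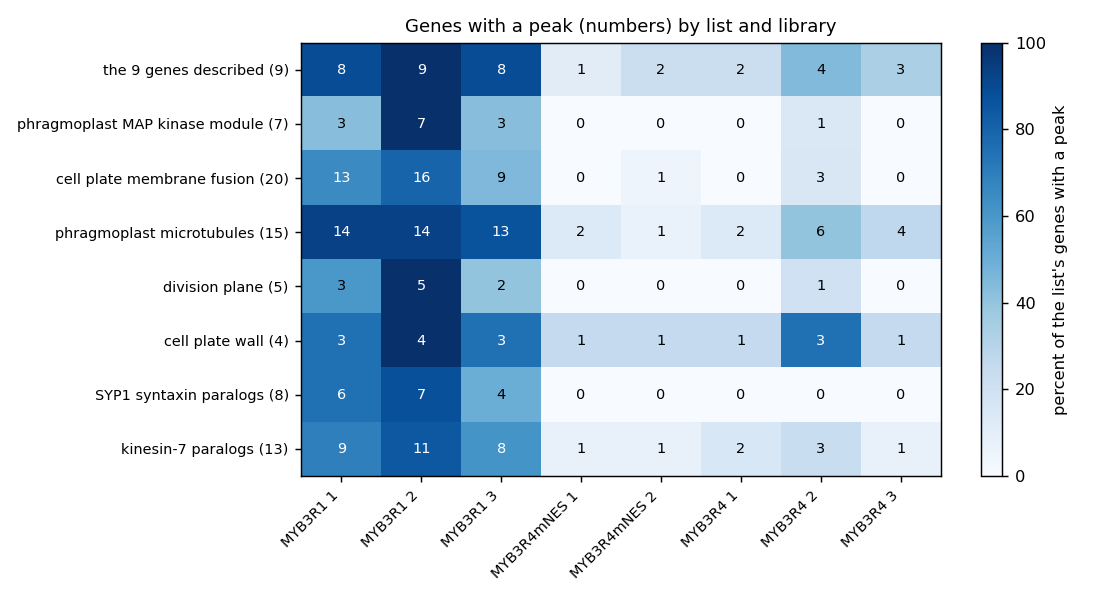
Number of genes with a peak (printed) and their percent of the list (colour) for the 9 cytokinesis genes and 7 lists of related genes (rows, list size in brackets) in 8 ChIP libraries (columns, group and replicate). Phragmoplast microtubule genes have 13 or 14 of 15 genes bound in MYB3R1 libraries and 2 to 6 in MYB3R4 libraries. Of all genes, MYB3R1 libraries bound 29.5% to 65.9% and MYB3R4 libraries 1.29% to 9.12%. SYP1 paralogs have 0 in all MYB3R4mNES and MYB3R4 libraries, near the 0.612% to 9.12% of all genes bound there.

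In all, 103 of the 27444 genes were bound in every one of the 8 libraries. The 3 whose percentiles of fold enrichment were nearest to those of SYP111, by the mean absolute difference over 8 libraries, were PPK1 (AT1G77720), at 0.416 percentile points, and GCH (AT5G64300) and AGP1 (AT5G64310), which share a peak, both at 0.521. PPK1 had fold enrichments of 17.6, 10.5 and 9.54 in MYB3R1, 4.56 and 5.55 in MYB3R4mNES and 4.45, 5.64 and 6.50 in MYB3R4. No other gene of the 9 was among the 103. Without the library labelled MYB3R4mNES replicate 1, 133 genes were bound in the other 7, again with SYP111 alone of the 9, and the ranking changed. The nearest were then AT1G64760 and PnsB2 (AT1G64770), both at 0.307, then hemf2 (AT4G03205) and XTH9 (AT4G03210), both at 0.409, and PPK1 at 0.413.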

How the data were processed

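Peak lists of 8 ChIP-seq libraries were analysed, and the 7 input samples were not used here. Per the submitters' processing notes, FastQC, Trimmomatic, Bowtie2, Picard and build TAIR10 were used, with no versions; no source used here names the program that called the peaks. Per the file names, reads were extended to 400 bp and input served as background. Each deposited peak has a score (10 times the -log10 q-value, not used), a fold enrichment (ratio), -log10 values of p and q, and, in another column, the offset of its summit. The lowest deposited -log10 q-value was 1.31. Per the labels' protocols, library preparation and sequencing differed between samples, without saying for which.

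Gene ends came from a RefSeq table (TAIR10.1, no strand), used for windows and distances only. In a window lay 35.4% to 82.3% of summits per library, and 27.7% to 49.7% with genes shifted by 5000 bp. Both lowest values were those of MYB3R4 replicate 1, so a smaller part of its peaks lay at gene ends. The MYB3R1 libraries had 80.4% to 82.3%, and 49.2% to 49.7% with shifted genes. Organelle peaks were left out. Numbers of bound genes were compared by exact permutation tests (p is 2 times the smaller tail), and window assignment was tested on simulated peaks. Python 3.11.15, pandas 2.3.3 and numpy 2.4.6 were used. Named beside the 9 genes and FU are genes that share their summits, the 3 most like SYP111 and, per list, up to 4 with a MYB3R4 or MYB3R4mNES peak (most libraries first) and up to 2 bound in no library. Members and lists were chosen with earlier results of these data known. Promoter motifs were not searched here. Alternatives were other windows, q-value limits, equal list length, any part of the peak, the nearest gene end, other target rules, libraries left out, naming style, the replicate number as a block and, added after seeing the data, FU counted in addition and equal length without the library labelled MYB3R4mNES replicate 1.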

Additional observations from a re-analysis of the deposited data

How the results depend on the processing

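The difference in genes bound between MYB3R1 and MYB3R4 libraries kept its direction in all 12 alternatives that keep or regroup libraries, from 4 to 6.33 genes. It was 4.83 to 5.83 with a library left out. The other windows, any part of the peak and the replicate block gave the main value of 5.33, so the 12 are not independent. Genes at large share this direction, with 29.5% to 65.9% of all genes bound in MYB3R1 libraries and 1.29% to 9.12% in MYB3R4 libraries. The difference between MYB3R4mNES and MYB3R4 was -2 to -1 with a library left out and changed sign only at equal list length, to 0.167, and to 0.667 at the equal length of the other 7 lists without the library labelled MYB3R4mNES replicate 1 (added after seeing the data); with a -log10 q of at least 10 it was -0.333. Genes among MYB3R1 targets numbered 5 at equal length, against 8, and 8 with any library left out. Genes among MYB3R4 targets numbered 1 at equal length and 1 with a -log10 q of at least 10, against 3, and 2 to 3 with a library left out. Genes among MYB3R4mNES targets numbered 2 when 1 library was enough, against 1. Fewer peaks are kept by construction in the shortened and stricter lists. The shares of all genes that were targets under these alternatives are not given here. With the replicate number as a block (paired libraries) the differences were 5.33 (exact sign-flip p = 0.25) and -1.5 (exact sign-flip p = 0.50). These are the smallest p that this test can give for 3 and 2 pairs. Deviations from the group mean correlated at -0.0830 to 0.0657 for same-numbered libraries and at -0.0841 to 0.0934 for different-numbered ones. Such deviations cancel within these small groups, so the check can hardly show or exclude pairing. The numbers were not taken to pair samples. The gene-start window was not run, since the table gives no strand. Unknown depth limits all statements on genes without a peak.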
